A study of Homo sapiens with 15 samples.

Results

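Chromosome M, the mitochondrial genome, held 37 of the 58780 rows with a gene identifier in the count table, and these rows are described here across 15 libraries. They were all rows that GENCODE release 29 places on chromosome M, whose symbols start with MT-: 13 messenger RNAs (mRNAs), 2 ribosomal RNAs and 22 transfer RNAs. The cells were atrial cardiomyocytes, the muscle cells of the upper heart chambers, made from H7, an established wild-type line of human embryonic stem cells. The day on which the cells were dissociated is recorded as the same for all 15 samples. The study asked what ATRNL1, which encodes the membrane protein attractin-like 1, does in such cells. There were 5 groups of 3 libraries: a scramble siRNA, siRNA-1 against ATRNL1, siRNA-2 against ATRNL1, a control lentivirus, and a lentivirus with the short isoform of ATRNL1. Per the labels' protocols, transduced cells were selected with puromycin, which the siRNA cells are not said to have received, and no source used here gives the content of the control virus. The labels name polyA RNA as the molecule, whereas their protocols describe total RNA from which ribosomal RNA had been depleted.

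Mitochondrial DNA encodes core subunits of the respiratory chain and of ATP synthase, together with the ribosomal and transfer RNAs that mitochondria use to translate them. Both DNA strands are read as long precursors, and transfer RNAs between the other genes mark where the precursors are cut, so that the level of a single RNA reflects cutting and decay as well as transcription. Cardiomyocytes are rich in mitochondria, and nuclear genes supply the remaining subunits, the polymerase and the RNA-handling proteins. Complex I (NADH dehydrogenase) takes electrons from NADH, complex III (the cytochrome bc1 complex) passes them to cytochrome c, complex IV (cytochrome c oxidase) gives them to oxygen, and complex V (ATP synthase) makes ATP.

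The 13 mRNAs were 7 of complex I (MT-ND1, MT-ND2, MT-ND3, MT-ND4L, MT-ND4, MT-ND5 and MT-ND6), 1 of complex III (MT-CYB), 3 of complex IV (MT-CO1, MT-CO2 and MT-CO3) and 2 of complex V (MT-ATP8 and MT-ATP6). MT-ND6 was the 1 mRNA read from the light strand, and the other 12 were read from the heavy strand. Of the transfer RNAs, 14 were heavy-strand and 8 light-strand genes. The genes are packed so closely that some share bases, and reads in shared bases cannot be given to 1 gene with certainty. MT-ATP8 and MT-ATP6 shared 46 bases, MT-ND4L and MT-ND4 shared 7, MT-ATP6 and MT-CO3 shared 1, and MT-TC and MT-TY shared 1. The mRNAs were between 207 and 1812 bases long, with a GC content between 39.6% and 47.7%. Copies of mitochondrial DNA in the nuclear genome have 417 rows of their own, and reads that match both places cannot be told apart. Counts on those rows came to between 0.756% and 0.934% of the counts on the 13 mRNAs.

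Sequences from the GENCODE release 29 transcripts show the features that bear on the counts below (build GRCh38, 5′ to 3′ on the strand of each gene). MT-ATP8 (chrM:8366-8572, + strand, exonic and coding) is printed whole because it is the shortest mRNA and its last bases, in capitals, are also the first bases of MT-ATP6. The end of MT-ND4L (chrM:10707-10766, + strand) has the bases shared with MT-ND4 in capitals. The ends of MT-CO3 (chrM:9961-9990, + strand) and MT-CYB (chrM:15858-15887, + strand) have in capitals the base left after the last whole codon. Such an incomplete last codon stands in the annotated sequence of 6 of the 13 mRNAs, and addition of the polyA tail completes the stop codon. MT-ATP6 is annotated with a whole last codon, of which the last base is also the first of MT-CO3.
MT-ATP8: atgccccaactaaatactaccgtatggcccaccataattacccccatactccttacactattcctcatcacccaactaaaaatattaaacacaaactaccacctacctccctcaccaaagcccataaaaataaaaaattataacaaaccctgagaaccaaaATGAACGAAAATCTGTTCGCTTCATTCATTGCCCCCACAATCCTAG
MT-ND4L, last bases: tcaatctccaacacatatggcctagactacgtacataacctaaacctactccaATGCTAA
MT-CO3, last bases: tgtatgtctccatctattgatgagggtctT
MT-CYB, last bases: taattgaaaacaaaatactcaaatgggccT

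Printed next are 4 of the transfer RNAs tested below, with their anticodons in capitals. MT-TP (proline, chrM:15956-16023, - strand) and MT-TT (threonine, chrM:15888-15953, + strand) are neighbours on opposite strands. MT-TY (tyrosine, chrM:5826-5891, - strand) and MT-TC (cysteine, chrM:5761-5826, - strand) are neighbours on the light strand and share their boundary base.
MT-TP: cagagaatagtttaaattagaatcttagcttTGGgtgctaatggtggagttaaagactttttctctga
MT-TT: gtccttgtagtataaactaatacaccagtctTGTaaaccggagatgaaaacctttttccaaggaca
MT-TY: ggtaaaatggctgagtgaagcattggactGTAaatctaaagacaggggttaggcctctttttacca
MT-TC: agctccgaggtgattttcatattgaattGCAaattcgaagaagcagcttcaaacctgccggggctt

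Total counts ran from 37078568 to 108663135 per library. ATRNL1 stood between 13.8 and 16.8 CPM (counts scaled to a common library size, with TMM factors) with scramble, 8.25 and 10.2 with siRNA-1, 4.61 and 5.41 with siRNA-2, 27.1 and 29.2 with the control lentivirus, and 636 and 926 with the ATRNL1 lentivirus. The summed level of 8 cardiomyocyte markers, listed as atrial, lay between 11760 and 19310 CPM. Among the 8, TNNT2 (2526 to 3902 CPM) and ACTN2 (1646 to 3382 CPM) are not particular to atrial cells. Of the 8, NPPA reached 104 CPM at most and SLN stayed under 1 CPM in every library. Ventricular markers summed to between 2141 and 5626 CPM, fibroblast markers to between 145 and 202 CPM in the siRNA libraries and between 105 and 130 CPM in the lentiviral libraries, endothelial markers to between 37.2 and 72.2 CPM (with 4 of 5 genes under 1 CPM) and endoderm markers to between 17.3 and 24.9 CPM. Markers of pluripotent and blood cells stayed under 1 CPM in every library for 5 of 5 genes each. In 4 of the groups, 1 sample title joins the numbers of the other 2 titles, and the labels do not say whether those samples were pools. For scramble, the third column lay between the other columns in 74.4% of 7254 genes over 20 CPM, and in 99.6% of the 795 genes whose spread exceeded 1.3-fold. The second siRNA-1 column did so in 98.5% of 134 such genes. In the other groups the highest share was lower. It was 78.2% of 87 genes for the second control lentivirus column and 65.7% of 35 for the second siRNA-2 column. For the third ATRNL1 lentivirus column it was 51.1% of 947. The labels do not state whether the 3 libraries of a group are independent cultures. The p-values therefore speak only to the spread between these libraries, which may be technical.

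Per kilobase of gene length, the levels of the 13 mRNAs spanned from 1436 ± 70.4 CPM per kilobase for MT-ND4L to 8551 ± 290 for MT-CO1 in the scramble group (SD, n = 3). MT-CO2 followed at 8305 ± 424, and its libraries overlapped with those of MT-CO1. The next were MT-ND4 at 7402 ± 292 and MT-CO3 at 7044 ± 207, which also overlapped. MT-ND5 (5284 ± 205) and MT-CYB (5039 ± 382) formed the next overlapping pair. Below them, each step down was larger than the range of the libraries for MT-ATP6 (4018 ± 119), MT-ND6 (3518 ± 117), MT-ND1 (2589 ± 71.0), MT-ND3 (1662 ± 82.6) and MT-ND4L. MT-ND2 (2971 ± 172) and MT-ATP8 (2924 ± 167) overlapped with each other. MT-ND3 and MT-ND4L were the lowest in every group, and MT-CO1, MT-CO2, MT-CO3 and MT-ND4 held the highest 4 places in every group. MT-ATP8, MT-ND4L and MT-ND3 are the shortest mRNAs, at 207, 297 and 346 bases. MT-ATP8 and MT-ND4L also share bases with MT-ATP6 and MT-ND4. The order is one of counts per kilobase, and whether it follows the number of mRNA molecules was not tested. The single light-strand mRNA, MT-ND6, stood in the middle of the order.

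**Figure D1:**
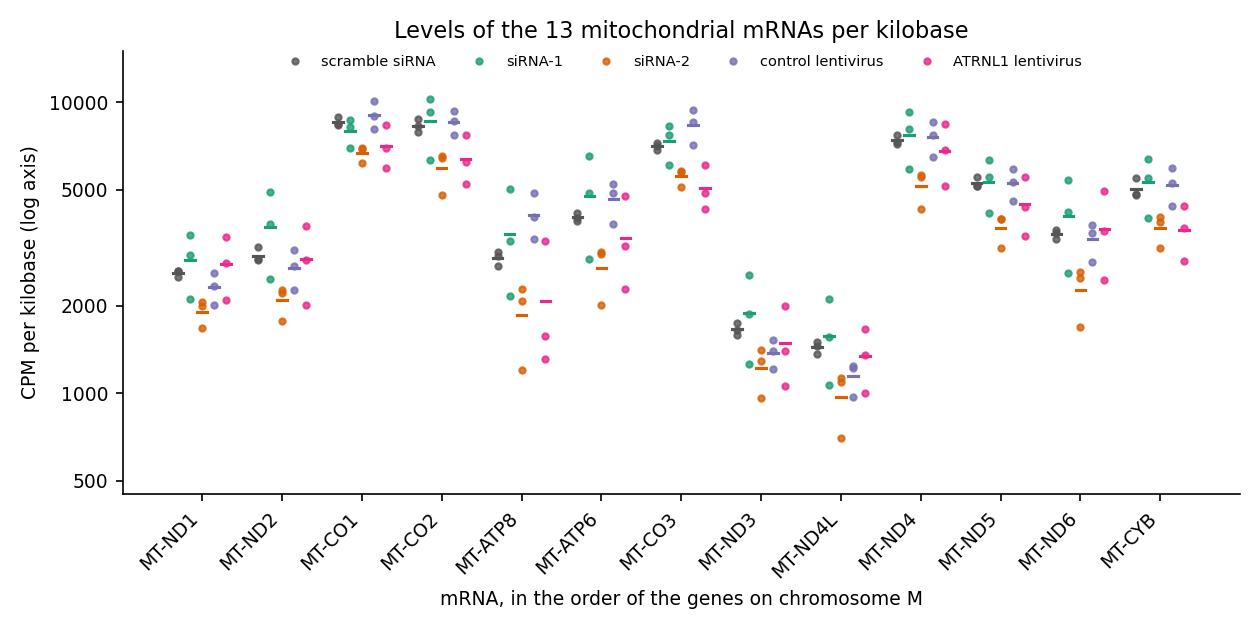
CPM per kilobase (log axis) of each of the 13 mRNAs in the order of the genes, with a point per library, a short line at the mean of 3 libraries and a colour per group. Complex IV mRNAs and MT-ND4 are at the top, MT-ND3 and MT-ND4L at the bottom, and the siRNA-2 points lie below the scramble points in all 13 columns.

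The 37 rows held 6.33%, 6.79% and 6.32% of all counts in the scramble libraries, almost all of it on the mRNAs. With siRNA-1 the shares were 7.79%, 6.97% and 5.32%, and with siRNA-2 they were 5.26%, 5.31% and 4.26%. The control lentivirus libraries had 5.15%, 6.01% and 6.64%, and the ATRNL1 lentivirus libraries 4.10%, 5.43% and 4.80%. All 3 siRNA-2 libraries were below all scramble libraries (mean 4.95% against 6.48%) and narrowly below all siRNA-1 libraries, of which the lowest had 5.32%. The scramble libraries lay close together, whereas the siRNA-1 libraries spread more widely than the distance between the siRNA-1 and scramble means. In an exact two-sided permutation test of 3 libraries against 3, for which 0.1 is the smallest p possible, p was 0.1 for siRNA-2 against scramble, 0.8 for siRNA-1 against scramble, 0.2 for ATRNL1 lentivirus against control lentivirus and 0.3 for control lentivirus against scramble. Fewer cells rich in mitochondria and less mitochondrial RNA per cell cannot be told apart in such bulk libraries.

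**Figure D2:**
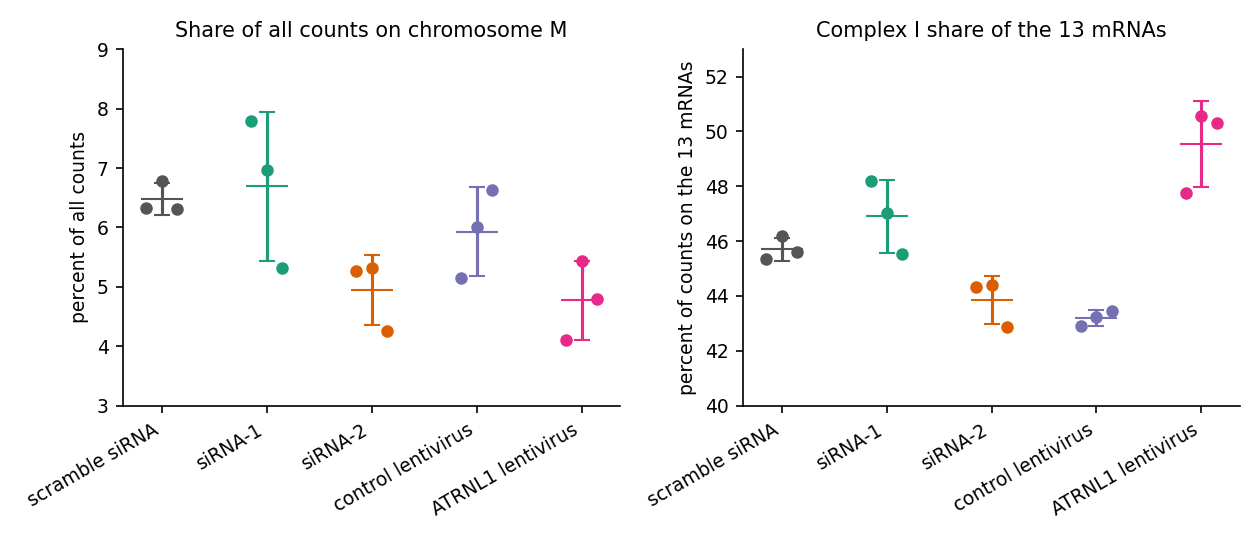
Left, percent of all counts on chromosome M per library. Right, percent of the counts on the 13 mRNAs that fell on the 7 complex I mRNAs. Points are libraries, and the horizontal line with bars is the mean ± SD of 3; the axes do not start at 0. The siRNA-2 libraries reach 5.31% at most on the left, and the ATRNL1 lentivirus libraries have 47.7% or more on the right.

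siRNA-1 left the mRNAs without a call. None of the 13 was called against scramble by edgeR's quasi-likelihood test (Benjamini-Hochberg adjusted p under 0.05), and 0 had an unadjusted p under 0.05, beside 5.85% of all 24659 genes tested called higher and 3.76% called lower. DESeq2 and limma voom also called 0, and edgeR without the filter on low counts called 3 higher. The log2 fold changes had a median of 0.13, against -0.01 over all genes, and ran from -0.11 for MT-CO1 to 0.33 for MT-ND2. MT-ND2, a core subunit of complex I, stood at 3003, 3302 and 2982 CPM with scramble and at 5105, 3976 and 2577 CPM with siRNA-1. The siRNA-1 libraries thus lay on both sides of the scramble libraries, and the 95% interval of the log2 fold change was -0.05 to 0.70. The interval for MT-CO1, a catalytic subunit of complex IV, was -0.33 to 0.11.

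The siRNA-1 libraries differed among themselves as a block. All 13 mRNAs were lower in library 3 than in library 1, by a median of 0.73 on the log2 scale, and all 13 were lower in library 2 than in library 1, by a median of 0.22. Between libraries 1 and 3, MT-ATP8 differed most (-1.22) and MT-CO1 least (-0.33). The same 2 mRNAs were the extremes between siRNA-2 libraries 1 and 3, at -0.79 and -0.17, and between ATRNL1 lentivirus libraries 1 and 2, at 1.08 and 0.49. Among the scramble libraries, the largest difference of any mRNA in any pair was 0.19 (MT-CYB). In some pairs of libraries, shorter mRNAs differed more than longer ones. Across the 13 mRNAs, Spearman's rho between length and the difference was 0.78 for siRNA-1 library 3 against 1, 0.75 for siRNA-2 library 3 against 1 and -0.67 for ATRNL1 lentivirus library 2 against 1, but -0.12 for ATRNL1 lentivirus library 3 against 1. These are descriptions across genes of the same libraries, and GC content in place of length gave 0.74, 0.73, -0.79 and -0.27, so that length and GC content cannot be told apart. For the fold changes of the group comparisons, rho with length and with GC content was -0.60 and -0.64 for siRNA-1 against scramble, 0.45 and 0.70 for siRNA-2 against scramble, -0.67 and -0.83 for siRNA-1 against siRNA-2, and -0.04 and -0.11 for ATRNL1 lentivirus against control lentivirus. These too are descriptions over the same 13 mRNAs, and comparisons that share a group are not independent. The part of length and GC content in the calls was not tested.

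With siRNA-2, mRNAs of complexes I, III and IV fell against scramble, and those of complex V had values below 0 without a call. Of the 13 mRNAs, 9 were called lower and 0 higher, beside 8.48% of all genes tested called lower and 9.64% called higher. With library sizes alone as the scaling, those shares were 6.03% and 14.1%, and 8 mRNAs were called lower. The median log2 fold change of the 13 was -0.51, against 0.00 over all genes, and all 13 had an unadjusted p under 0.05. In all 13, every siRNA-2 library was below every scramble library. The shares of all genes with such a p or such a separation were not computed. The 13 mRNAs often moved together between libraries of a group, so these counts are not 13 separate results. The calls took in 5 of 7 complex I mRNAs, the complex III mRNA and 3 of 3 complex IV mRNAs, and neither of the complex V mRNAs. The summed level of 4 ventricular markers was 2141 to 2896 CPM with scramble and 3493 to 3577 CPM with siRNA-2. That of the 8 markers listed as atrial was 13450 to 19310 and 14610 to 16090 CPM. The part of these markers in the result was not tested.

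MT-ND6, which encodes a membrane subunit of complex I, had the largest change among the called mRNAs. It stood at 1781, 1903 and 1857 CPM with scramble and at 1306, 1373 and 885 CPM with siRNA-2. Library 3 was the lowest of all, and the other siRNA-2 libraries were also below every scramble library. The log2 fold change was -0.64 (SE 0.20, adjusted p = 0.0303). MT-ND4L fell by 0.56 (SE 0.18, adjusted p = 0.0332), MT-ND4 by 0.53 (SE 0.15, adjusted p = 0.0134), MT-ND5 by 0.51 (SE 0.14, adjusted p = 0.0104) and MT-ND1 by 0.44 (SE 0.15, adjusted p = 0.0367) on the log2 scale. These are membrane subunits of complex I.

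Complex III and IV mRNAs moved by similar amounts. MT-CYB, cytochrome b, had 5475, 6251 and 5521 CPM with scramble and 4414, 4610 and 3611 CPM with siRNA-2. No libraries overlapped, and the log2 fold change was -0.45 (SE 0.14, adjusted p = 0.0309). MT-CO2, which carries the copper site that takes electrons from cytochrome c, fell by 0.49 (SE 0.14, adjusted p = 0.0166). MT-CO1 fell by 0.36 (SE 0.11, adjusted p = 0.0196), from 13190 ± 447 to 10280 ± 670 CPM (SD, n = 3). MT-CO3 fell by 0.34 (SE 0.12, adjusted p = 0.0408).

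The 4 mRNAs without a call did not stand apart in size. MT-ATP8 had a log2 fold change of -0.66 (SE 0.27, adjusted p = 0.0913), the largest of the 13, with 614, 634 and 567 CPM for scramble and 429, 474 and 249 CPM for siRNA-2. MT-ATP6, the proton channel subunit of ATP synthase, had -0.58 (adjusted p = 0.0683), MT-ND2 -0.51 (adjusted p = 0.0527) and MT-ND3 -0.45 (adjusted p = 0.105). Their libraries did not overlap with scramble either, and their SE was larger, between 0.18 and 0.27. The calls rested on single libraries. Without siRNA-2 library 3, 0 of the 13 were called, with log2 fold changes still between -0.46 and -0.29. Without scramble library 3, 4 were called, and without scramble library 2, 5. DESeq2 called 3. With 2 libraries per group, leaving out the library that most often lay between the others (an alternative chosen after seeing the data), 0 were called.

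**Figure D3:**
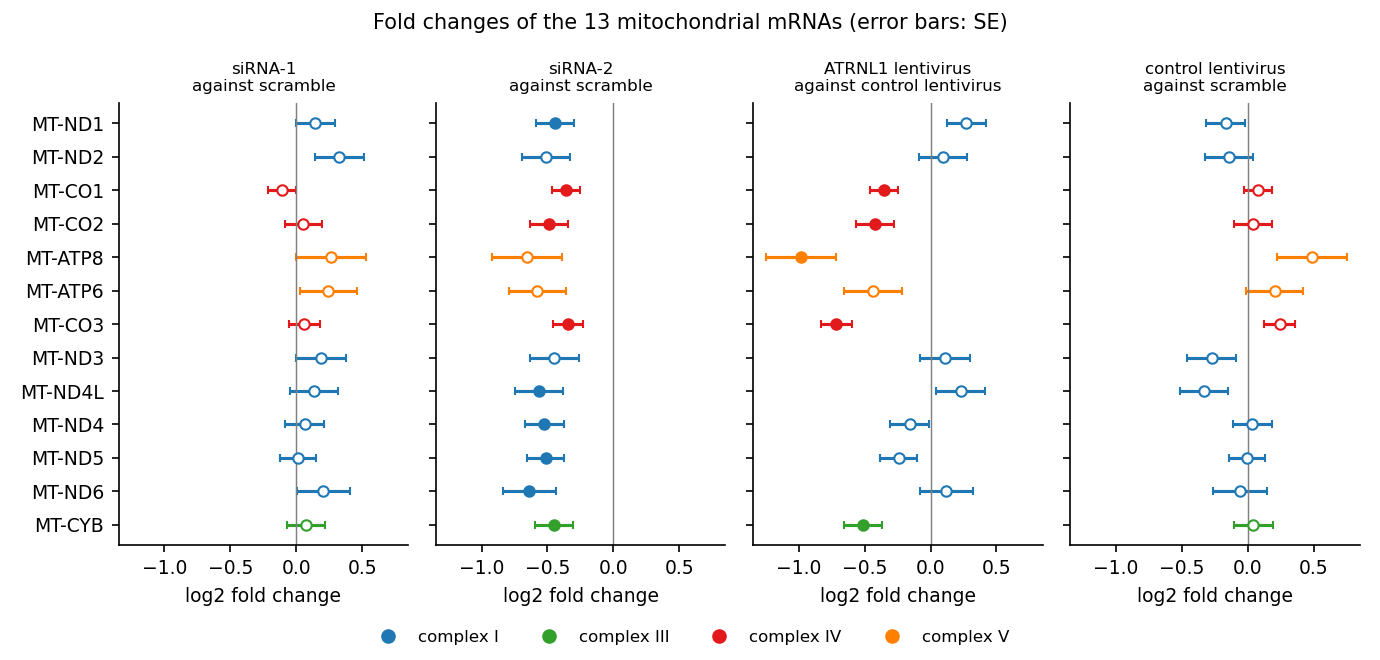
Log2 fold change (x axis) with SE for each of the 13 mRNAs (y axis, in gene order) in 4 comparisons, coloured by respiratory complex, from edgeR's model over 15 libraries. Filled points were called at an adjusted p under 0.05 and open points were not. siRNA-2 shows 13 points left of 0, and ATRNL1 lentivirus shows complexes III, IV and V left of 0 with complex I on both sides.

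The siRNAs were also set against each other. Relative to siRNA-2, 12 of the 13 mRNAs were called higher with siRNA-1 and 0 lower, beside 5.60% of all genes tested called higher and 4.53% called lower. With library sizes alone, the genome-wide shares were 4.24% and 8.33%, and the count of mRNAs stayed at 12. The median of the 13 was 0.59, against -0.01 over all genes. MT-ATP8 had the largest difference at 0.92 (SE 0.27, adjusted p = 0.0259), followed by MT-ND6 at 0.84 (SE 0.21, adjusted p = 0.00794) and MT-ND2 at 0.84 (SE 0.18, adjusted p = 0.0031). MT-CO1, at 0.25 (adjusted p = 0.156), was the 1 mRNA without a call. Only 5 of the 13, a count not made over all genes, had siRNA-1 libraries that were all above all siRNA-2 libraries. In the other 8, siRNA-1 library 3 lay among the siRNA-2 libraries. Without siRNA-1 library 1, or without siRNA-2 library 3, 1 of the 13 was called, without siRNA-1 library 2, 5 were called, and DESeq2 called 7. With 2 libraries per group, 0 were called.

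The ATRNL1 lentivirus was compared with the control lentivirus, and here the complexes parted. Called lower were 5 of the 6 mRNAs of complexes III, IV and V and 0 of the 7 complex I mRNAs, and no mRNA was called higher. Over all genes tested, 18.0% were called lower and 19.1% higher. The median log2 fold change was -0.47 for the 6 mRNAs of complexes III, IV and V and 0.11 for the 7 complex I mRNAs, against 0.00 over all genes.

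MT-CO3, a core subunit of complex IV, had the smallest adjusted p of the 13 here. It had 5580, 6695 and 7341 CPM in the control lentivirus libraries against 3361, 4761 and 3822 in those of the ATRNL1 lentivirus. All ATRNL1 libraries were below all control libraries, and the log2 fold change was -0.72 (SE 0.12, adjusted p = 2.08e-05). It was called in each of the 14 alternatives run for it, with a fold change between -0.86 and -0.60.

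MT-ATP8, a small subunit of ATP synthase, had 700, 1011 and 831 CPM in the control lentivirus libraries against 327, 690 and 271 in those of the ATRNL1 lentivirus. No libraries overlapped, although ATRNL1 library 2 came close to the control libraries, and the log2 fold change was -0.98 (SE 0.27, adjusted p = 0.00475). It was called in 10 of 14 alternatives, with a fold change between -1.50 and -0.59, and lost the call without ATRNL1 lentivirus library 1, without library 3, with 2 libraries per group and by DESeq2. MT-CYB had 4997, 6020 and 6761 CPM with the control and 3251, 4997 and 4220 CPM with ATRNL1. Its highest ATRNL1 library stood just at its lowest control library, and the log2 fold change was -0.51 (SE 0.14, adjusted p = 0.0066).

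MT-CO1 fell by 0.35 (SE 0.11, adjusted p = 0.0116) and MT-CO2 by 0.42 (SE 0.14, adjusted p = 0.0224) on the log2 scale, with libraries that overlapped. They were called in 10 and 8 of 14 alternatives, and MT-CYB in 10. MT-ATP6 had -0.44 (SE 0.22, adjusted p = 0.122). Among the complex I mRNAs, values ran from -0.24 (MT-ND5, 95% interval -0.53 to 0.05) to 0.27 (MT-ND1, 95% interval -0.03 to 0.57). DESeq2 called 2 of the 13 lower. Without ATRNL1 lentivirus library 1, 1 was called lower and 1 higher, and without ATRNL1 lentivirus library 3 or control lentivirus library 3, 2 were called lower. With 2 libraries per group, 1 was called lower. The summed level of 4 ventricular markers also differed, with 2977 to 3483 CPM in the control and 4902 to 5626 CPM in the ATRNL1 lentivirus libraries. That of the 8 markers listed as atrial was 13510 to 13740 and 11760 to 12460 CPM. Among those 8, the means of MYH6 (4519 and 2923 CPM) and MYL7 (2589 and 2022 CPM) were lower with the ATRNL1 lentivirus. The mean of ACTN2 was higher (2567 and 3194 CPM), and that of TNNT2 was 3785 and 3789 CPM. The part of these markers in the result was not tested.

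The parting of the complexes was visible without any scaling between libraries. Complex I mRNAs made up 42.9%, 43.3% and 43.5% of the counts on the 13 mRNAs with the control lentivirus and 47.7%, 50.6% and 50.3% with the ATRNL1 lentivirus. The scramble libraries had 45.3%, 46.2% and 45.6%, so the control lentivirus lay below scramble and the ATRNL1 lentivirus above it. Each of the 7 complex I mRNAs took a larger share in all ATRNL1 libraries than in all control libraries, and 4 of the other 6 took a smaller share in all of them. The largest share gains were those of MT-ND1, from a mean of 3.46% to 5.09%, and MT-ND4L, from 0.53% to 0.76%, and the largest losses those of MT-ATP8, from 1.33% to 0.80%, and MT-CO3, from 10.2% to 7.70%. Shares of a whole are tied to each other, so that a loss in some raises the others. The log2 ratio of heavy-strand complex I mRNAs to the mRNAs of the other complexes was -0.49 on average with the control lentivirus and -0.14 with the ATRNL1 lentivirus (exact permutation p = 0.1, two-sided, the smallest that 3 against 3 allow).

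The same ratio was -0.35 with scramble, -0.28 with siRNA-1 and -0.45 with siRNA-2. siRNA-1 and scramble overlapped, and siRNA-2 lay below scramble in all libraries, with complex I at 44.3%, 44.4% and 42.9% of the mRNA counts. The shift with siRNA-2 was -0.10 on this scale and that with the ATRNL1 lentivirus, against the control lentivirus, 0.35. The control groups themselves differed by -0.14 (control lentivirus against scramble), without overlap, which is more than the siRNA-2 shift.

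The control lentivirus was compared with scramble as 2 control groups that differ in delivery, in virus, in puromycin selection and in any batch of preparation, which cannot be told apart. Over all genes tested, 30.3% were called higher and 33.2% lower, and library sizes alone as the scaling moved these to 23.5% and 40.7% and the median of all genes from -0.06 to -0.26. None of the 13 mRNAs was called by edgeR, limma voom or DESeq2, and 1 had an unadjusted p under 0.05. Log2 fold changes ran from -0.33 for MT-ND4L to 0.49 for MT-ATP8. All 6 mRNAs of complexes III, IV and V had values above 0 and 6 of the 7 complex I mRNAs had values below 0. With library sizes alone, 3 mRNAs were called lower, and MT-CO1, MT-CO2, MT-CYB and MT-ND4 changed sign without a call.

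The ribosomal RNA rows separated the delivery methods by far more than any mRNA. MT-RNR1, the small ribosomal subunit RNA (chrM:648-1601, + strand), had 3.67, 4.31 and 6.32 CPM with scramble, 4.03, 2.51 and 3.14 with siRNA-1, and 2.46, 34.7 and 2.88 with siRNA-2. It had 364, 285 and 163 CPM in the control lentivirus libraries and 722, 68.6 and 60.1 with the ATRNL1 lentivirus. Every lentiviral library was above every siRNA library, and siRNA-2 library 2 stood far above the rest of its group.

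MT-RNR2, the large ribosomal subunit RNA (chrM:1671-3229, + strand), had 8.01, 9.32 and 12.1 CPM with scramble, 15.04, 7.91 and 8.54 with siRNA-1, and 3.99, 61.8 and 5.32 with siRNA-2. It had 961, 899 and 543 CPM in the control lentivirus libraries and 1361, 391 and 247 with the ATRNL1 lentivirus. The same libraries were high as for MT-RNR1. Control lentivirus against scramble gave log2 fold changes of 5.78 (SE 0.86, adjusted p = 1.79e-06) for MT-RNR1 and 6.33 (SE 0.75, adjusted p = 4.52e-08) for MT-RNR2. In edgeR's model with TMM scaling, all 15 libraries and the filter on low counts, neither was called within a delivery method. Adjusted p was 0.238 and 0.199 for siRNA-2 against scramble and 0.95 and 0.766 for ATRNL1 lentivirus against control lentivirus. Single libraries decided these values. Without siRNA-2 library 2, the fold changes of siRNA-2 turned from positive to negative in both rows. Without ATRNL1 lentivirus library 1, that of the ATRNL1 lentivirus moved from 0.07 to -2.06 for MT-RNR1, which was then called lower (adjusted p = 0.0112), and from -0.27 to -1.32 for MT-RNR2, which was not called. With all libraries and no filter on low counts, MT-RNR2 was called lower with the ATRNL1 lentivirus (adjusted p = 0.00714). Some alternatives also called these rows for the siRNAs against scramble. For siRNA-2, MT-RNR1 was called higher in 1 of 14 alternatives and MT-RNR2 in 2 of 14. For siRNA-1, MT-RNR1 was called lower in 1 of 14.

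If ribosomal RNA was depleted, as the protocols describe, these rows hold what was left after it, and they are not read here as levels in the cells. Other RNA classes did not share one pattern between the delivery methods. Nuclear ribosomal RNA rows were low throughout and went the other way, with 8.07e-05% to 1.73e-04% of counts in the siRNA libraries and 2.32e-05% to 4.06e-05% in the lentiviral libraries. Rows of GENCODE type misc_RNA held 0.297% to 0.409% of counts in the siRNA libraries and 0.0448% to 0.0816% in the lentiviral libraries, and small nucleolar RNA rows 0.0319% to 0.0551% and 0.0135% to 0.0165%, also lower with the lentiviruses. Small nuclear RNA rows overlapped, with 0.00695% to 0.00848% and 0.00525% to 0.00834%. The part of library preparation in the ribosomal rows was not tested. In no library did the 2 rows hold more than 0.200% of all counts.

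**Figure D4:**
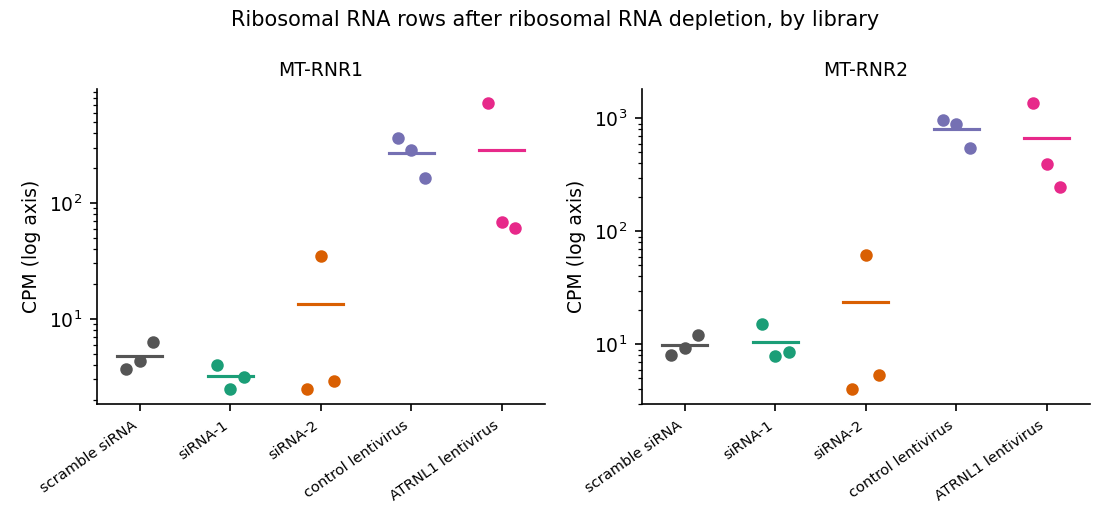
CPM (log axis) of MT-RNR1 and MT-RNR2 per library, with a line at the mean of 3. The lentiviral libraries lie between 60.1 and 1361 CPM, and the siRNA libraries at 15.04 CPM or less except for the second siRNA-2 library.

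The transfer RNA rows were mostly empty. Of the 22, 7 had no count in any library (MT-TL1, MT-TQ, MT-TA, MT-TN, MT-TS1, MT-TK and MT-TR) and 9 others had at most 10 counts in a library (MT-TV, MT-TI, MT-TM, MT-TW, MT-TD, MT-TG, MT-TH, MT-TS2 and MT-TL2). The remaining 6 passed the filter on low counts and were tested: MT-TF (phenylalanine), MT-TC, MT-TY, MT-TE (glutamate), MT-TT and MT-TP. A member passes that filter also when it is high in 1 group only. Together with the 13 mRNAs and 2 ribosomal RNAs, 21 of the 37 rows were tested. The transfer RNA genes were 59 to 75 bases long, and libraries of fragmented RNA keep few molecules of that length. Whether the rows counted mature transfer RNAs or precursors was not tested.

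MT-TP stood out from all other transfer RNA rows, with 77.7% to 94.5% of all transfer RNA counts in a library. It had 58.6, 76.4 and 60.4 CPM with scramble, 72.3, 65.6 and 50.6 with siRNA-1, and 51.1, 54.3 and 37.1 with siRNA-2. It had 17.8, 26.4 and 25.1 CPM in the control lentivirus libraries and 51.6, 94.5 and 83.9 with the ATRNL1 lentivirus. The control lentivirus libraries were below all 12 others, and the ATRNL1 lentivirus libraries lay among and above the siRNA libraries.

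The log2 fold change of MT-TP was 1.73 for ATRNL1 lentivirus against control lentivirus (SE 0.18, adjusted p = 2.18e-08) and -1.49 for control lentivirus against scramble (SE 0.18, adjusted p = 5.38e-08). It was called in all 14 alternatives of both comparisons, with ranges of 1.55 to 1.96 and -1.69 to -1.35. These comparisons share the control lentivirus group, so that a low level there gives both values. Against scramble, siRNA-1 gave -0.05 (adjusted p = 0.913) and siRNA-2 -0.45 (adjusted p = 0.0721).

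MT-TP lies first on the light-strand precursor, far ahead of MT-ND6, and the pair did not move together. Per 1000 counts of MT-ND6, MT-TP had 32.9, 40.1 and 32.5 with scramble, 25.5, 29.9 and 37.1 with siRNA-1, 39.1, 39.5 and 41.9 with siRNA-2, 12.02, 14.2 and 12.7 with the control lentivirus and 40.1, 36.3 and 44.3 with the ATRNL1 lentivirus. Only the control lentivirus was low. Its log2 ratio differed from that of the ATRNL1 lentivirus by 1.63 and from that of scramble by -1.44, without overlap (exact permutation p = 0.1 each, two-sided).

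MT-TT, the neighbour of MT-TP on the other strand, did not share this pattern. It had 2.29, 2.28 and 2.54 CPM in the control lentivirus libraries against 2.26, 3.31 and 3.71 in those of the ATRNL1 lentivirus, with a log2 fold change of 0.37 (SE 0.16, adjusted p = 0.0732). Against scramble, the control lentivirus gave 0.31 (adjusted p = 0.103). No source used here states whether reads were counted by strand, and reads of the opposite strand in the MT-TP, MT-TT and MT-ND6 rows cannot be told apart.

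**Figure D5:**
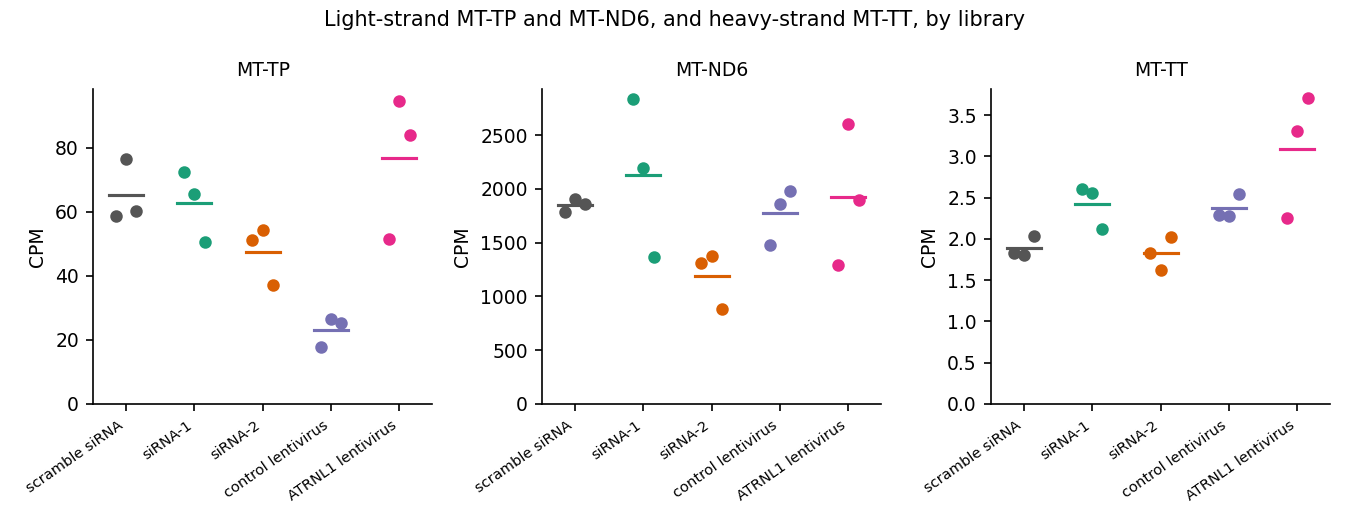
CPM of MT-TP and MT-ND6 (light strand) and of MT-TT (heavy strand) per library, with a line at the mean of 3 and axes that start at 0. MT-TP is between 17.8 and 26.4 CPM in the control lentivirus libraries and at 37.1 CPM or more in all others, whereas MT-ND6 and MT-TT show no such gap.

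The other transfer RNA rows were counted in few reads. MT-TC had 2.45, 2.51 and 1.89 CPM with scramble and 0.255, 0.759 and 0.373 CPM with the control lentivirus, where counts were between 16 and 75. The libraries did not overlap, and the log2 fold change was -2.18 (SE 0.33, adjusted p = 2.05e-06). MT-TF (-1.83, SE 0.50, adjusted p = 0.00264) and MT-TY (-1.07, SE 0.34, adjusted p = 0.00819) were also called lower with the control lentivirus. So 4 of the 6 tested transfer RNAs, among them MT-TP, were called lower with the control lentivirus than with scramble and 0 higher, against the genome-wide 33.2% and 30.3%. Of those 4, MT-TP was called higher with the ATRNL1 lentivirus, and the others had no call, with 0.45 for MT-TF (adjusted p = 0.574), -0.62 for MT-TC (adjusted p = 0.245) and -0.65 for MT-TY (adjusted p = 0.186). In the siRNA comparisons, 0 of the 6 were called. In siRNA-1 against scramble, siRNA-2 against scramble and siRNA-1 against siRNA-2, 0, 1 and 2 of the 6 had an unadjusted p under 0.05. This count was not made over all genes.

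The effect of overexpression was set against the mean effect of the siRNAs in 1 contrast. Of all genes tested, 16.5% were called higher and 15.5% lower in it. MT-CO3 was the 1 mRNA called, at -0.57 (SE 0.15, adjusted p = 0.00512), and MT-TP the 1 other chromosome M row called, at 1.98 (SE 0.23, adjusted p = 2.09e-07). All 7 complex I mRNAs had values above 0 in this contrast and all 6 others values below 0, with medians of 0.24 and -0.30 against 0.01 over all genes. For the mRNAs without a call, a difference between the effects was not shown. MT-ATP8, at -0.79, had an adjusted p of 0.0932.

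MT-ND6 was compared with the heavy strand within each library. Its counts were 3.00%, 3.08% and 3.19% of the sum of the 12 heavy-strand mRNAs with scramble, 3.84%, 3.41% and 2.86% with siRNA-1 and 2.81%, 2.94% and 2.35% with siRNA-2. They were 2.76%, 2.95% and 2.85% with the control lentivirus and 3.27%, 4.21% and 3.83% with the ATRNL1 lentivirus. The ATRNL1 lentivirus libraries were all above the control lentivirus libraries, by 0.40 in the log2 ratio, and siRNA-2 was below scramble by 0.20 without overlap (exact permutation p = 0.1 each, two-sided). Without siRNA-2 library 3, the log2 ratio of siRNA-2 less that of scramble was -0.10. siRNA-1 and scramble overlapped, with a difference of 0.11 (exact permutation p = 0.5). Set against its neighbours MT-CYB and MT-ND5 alone, MT-ND6 gave a difference of 0.43 for the ATRNL1 lentivirus and -0.17 for siRNA-2. In the siRNA-1 and ATRNL1 lentivirus groups, the share of MT-ND6 was highest in the library in which all 13 mRNAs were highest, library 1 and library 2.

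Nuclear genes that serve mitochondrial DNA and RNA were read as the surroundings of these rows. POLRMT encodes the mitochondrial RNA polymerase, and TFAM and TFB2M encode the factors that start transcription with it. With siRNA-2, TFB2M fell from 13.9 ± 1.08 to 9.64 ± 0.57 CPM (SD, n = 3), a log2 fold change of -0.54 (SE 0.11, adjusted p = 8.69e-04), and it stood at 12.5 ± 0.17 CPM with siRNA-1 (-0.16, adjusted p = 0.468). POLRMT had log2 fold changes of -0.05 and 0.00 with siRNA-1 and siRNA-2, and TFAM 0.12 and 0.04, none called. Of the 6 transcription genes, 1 was called lower and 0 higher with siRNA-2 and 0 either way with siRNA-1, beside 8.48% and 9.64% of all genes with siRNA-2 and 3.76% and 5.85% with siRNA-1.

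The RNA upkeep and decay genes had 5 of 13 called lower and 0 higher with siRNA-2, beside 8.48% and 9.64% of all genes, with a median of -0.11. GRSF1, a protein of mitochondrial RNA granules, fell, with a log2 fold change of -0.66 (SE 0.08, adjusted p = 7.22e-07) and means of 263 and 167 CPM. SLIRP, which with LRPPRC stabilises mitochondrial mRNAs, fell by 0.34 (SE 0.09, adjusted p = 0.00809) on the log2 scale, and LRPPRC had 0.04 (adjusted p = 0.785). With siRNA-1, 1 of the 13 was called lower and SLIRP had -0.17 (adjusted p = 0.302). Of 18 genes of mitochondrial DNA replication and upkeep, 5 were called lower with siRNA-2 and 0 higher, beside the same shares of all genes, among them RRM2B at -0.80 (SE 0.08, adjusted p = 1.89e-07) and RNASEH1 at -0.53 (SE 0.08, adjusted p = 2.15e-05), which encode a ribonucleotide reductase subunit and an RNase that removes RNA from RNA-DNA hybrids. RRM2B was also the 1 gene of that list called lower with siRNA-1, at -0.36 (SE 0.08, adjusted p = 0.00545).

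The nuclear subunits of complexes I, III, IV and V stood beside their mitochondrially encoded partners as follows. With siRNA-2, 20 of 76 were called lower and 0 higher, beside 8.48% and 9.64% of all genes, with a median of -0.15 against 0.00 over all genes. COX6A1 (complex IV) fell, with a log2 fold change of -1.48 (SE 0.10, adjusted p = 2.26e-10) and means of 51.8 and 18.6 CPM, and ATP5F1B, the catalytic beta subunit of ATP synthase, fell by 0.58 (SE 0.07, adjusted p = 2.05e-06). With siRNA-1, 4 of 76 were called lower and 0 higher, beside 3.76% and 5.85% of all genes, with a median of -0.04. COX6A1 was higher with siRNA-1 than with siRNA-2 by 1.19 (SE 0.10, adjusted p = 1.38e-08). Beside the same shares of all genes, mitochondrial ribosomal protein genes had 15 of 80 called lower and 0 higher with siRNA-2 (median -0.13), and 2 lower and 1 higher with siRNA-1 (median -0.03).

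With the ATRNL1 lentivirus against the control lentivirus, 12 of the 76 nuclear subunits were called higher and 16 lower, with a median of 0.02. Of all genes, 19.1% were called higher and 18.0% lower, so that these counts do not set the subunits apart. The medians by complex were 0.03 for I, 0.04 for III, -0.04 for IV and 0.00 for V. Whether the nuclear and the chromosome M members of a complex differed was not tested. COX6A1 fell by 0.41 (SE 0.10, adjusted p = 0.00153) and NDUFB1, an accessory subunit of complex I, by 0.70 (SE 0.09, adjusted p = 7.15e-07), whereas CYC1, cytochrome c1 of complex III, rose by 0.47 (SE 0.08, adjusted p = 2.69e-05). Complex II has no mitochondrially encoded subunit, and of its 4 genes 3 were called higher and 1 lower, with SDHA at 0.50 (SE 0.07, adjusted p = 8.95e-07).

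POLRMT had 3.87 ± 0.30 CPM with the control lentivirus and 8.59 ± 0.64 CPM with the ATRNL1 lentivirus (SD, n = 3), which is a log2 fold change of 1.13 (SE 0.10, adjusted p = 6.29e-10). Its scramble level was 24.3 ± 1.75 CPM. The mean of POLRMT was below that of scramble in both lentiviral groups, and ATRNL1 lentivirus against scramble was not tested. In edgeR's model over 15 libraries, the 13 mRNAs of chromosome M had no call between the control groups. The part of POLRMT in their levels was not tested. The transcription genes as a list did not follow POLRMT. Of the 6, 4 were called higher and 1 lower with the control lentivirus against scramble, with a median of 0.51. The shares of all genes were 30.3% and 33.2%. With the ATRNL1 lentivirus against the control lentivirus, 1 was called higher and 2 lower, beside 19.1% and 18.0% of all genes. TFAM (-0.13, adjusted p = 0.231) and TFB2M (0.11, adjusted p = 0.449) had no call with the ATRNL1 lentivirus. SLIRP fell by 0.35 (SE 0.09, adjusted p = 0.00286), LRPPRC rose by 0.18 (SE 0.07, adjusted p = 0.0423) and TEFM, the elongation factor, fell by 0.40 (SE 0.09, adjusted p = 8.44e-04) there. PRORP, the nuclease subunit that cuts the 5′ end of mitochondrial transfer RNAs, fell, with a log2 fold change of -0.81 (SE 0.10, adjusted p = 4.34e-07) and means of 10.2 and 5.79 CPM, and TRNT1, which adds the CCA end to transfer RNAs, fell by 0.19 (SE 0.07, adjusted p = 0.0418). In the control lentivirus, PRORP stood above scramble by 1.06 (SE 0.10, adjusted p = 1.45e-09), and ELAC2, which cuts the 3′ end, stood below it by a log2 fold change of -0.73 (SE 0.07, adjusted p = 3.58e-10). Of 6 genes of mitochondrial RNA cutting, 1 was called higher and 2 lower with the ATRNL1 lentivirus (median -0.09), beside 19.1% and 18.0% of all genes. With the control lentivirus against scramble, 3 were called higher and 2 lower (median 0.10), beside 30.3% and 33.2%. The part of these genes in the transfer RNA rows was not tested. Between the control groups, 47 of the 76 nuclear subunits were called lower and 14 higher (median -0.34), beside 33.2% and 30.3% of all genes (median -0.06).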

How the data were processed

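RNA of 15 libraries was sequenced after depletion of ribosomal RNA, per the labels' protocols, on a NovaSeq instrument. The deposited file holds raw counts, whole numbers for each gene and library. STAR 2.7.9a, DESeq2 1.30.1 and the GRCh38 build are named without roles, per the submitters' processing notes. The counter, its use of strand and its treatment of reads that map to several places are given in no source used here, and these bear on overlapping, opposite-strand and nuclear-copy genes. Of 59429 rows, 58780 carried GENCODE release 29 identifiers. The other 649 rows, with 0.00157% to 0.00437% of counts per library, were left out.

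Column names give the group but not the sample, so library numbers follow the columns and pair nothing. The model was edgeR 4.0.16 (R 4.3.3, limma 3.58.1), a quasi-likelihood fit of 5 group means to 15 libraries, with TMM scaling (factors 0.835 to 1.10), filterByExpr at a minimum count of 10, which kept 24659 genes, and Benjamini-Hochberg adjustment over all of them at 0.05. The biological coefficient of variation was 8.24%. CPM are counts scaled to TMM-adjusted library sizes, and log2 fold changes are the model's, with SE taken from the F statistic and 95% intervals from the t distribution. On data simulated from these counts, 98.0% of 200 genes changed 2-fold were called. Counting precision follows from totals of 37078568 to 108663135 counts. Shares and within-library ratios were compared by an exact two-sided permutation test. Differences in group means of shares are log2 ratios. Counts by unadjusted p, or by libraries without overlap, were made for chromosome M rows only. Alternatives were other scalings, no filter, DESeq2 1.42.0, limma voom, fits of the compared groups alone, and leaving out libraries.

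The members, the gene lists and the tests were chosen with earlier results of these data known. Named were all chromosome M rows and, of the nuclear lists, the genes that start or sustain mitochondrial transcription, LRPPRC and SLIRP, and called genes with the largest changes.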

Additional observations from a re-analysis of the deposited data

Results flagged for a closer look

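For 2 chromosome M rows, the effect of the ATRNL1 lentivirus (against the control lentivirus) differed from the mean effect of the siRNAs (against scramble), by edgeR's quasi-likelihood test of the difference itself with Benjamini-Hochberg adjustment over all genes tested. The log2 difference was -0.57 for MT-CO3 (SE 0.15, adjusted p = 0.00512), where the ATRNL1 lentivirus gave -0.72, siRNA-1 gave 0.06 and siRNA-2 gave -0.34. It ranged from -0.72 to -0.46 over 22 alternatives and was called in 21 of them. The mean of MT-CO3 was 6539 CPM with the control lentivirus and 5523 CPM with scramble, with libraries that overlapped and no call. It was 3981 CPM with the ATRNL1 lentivirus, 5761 with siRNA-1 and 4354 with siRNA-2. The part of the control lentivirus level in the difference was not tested. For MT-TP the log2 difference was 1.98 (SE 0.23, adjusted p = 2.09e-07), where the ATRNL1 lentivirus gave 1.73, siRNA-1 gave -0.05 and siRNA-2 gave -0.45. It ranged from 1.80 to 2.21 and was called in all 22 alternatives. For MT-TP, the 3 control lentivirus libraries lay below the libraries of every other group.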

How the results depend on the processing

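No paired analysis was possible because the columns carry only the group, and their numbers match no sample's label. The count of mRNAs called depended on the test, the filter and single libraries, while no called member changed sign under any alternative. Against the 9 mRNAs called for siRNA-2, DESeq2 called 3, fits with 2 libraries per group called 0, and leaving out 1 library gave 0 to 7. For siRNA-1 against siRNA-2 (12), DESeq2 called 7, 2 libraries per group 0, and leaving out 1 library gave 1 to 12. For siRNA-1 against scramble (0), no filter gave 3 and leaving out 1 library 0 to 1. For the ATRNL1 lentivirus (5), no filter gave 9, DESeq2 2, 2 libraries per group 1, and leaving out 1 library 2 to 7. For control lentivirus against scramble (0), library size alone gave 3, no filter 5, the compared groups alone 4, and leaving out 1 library 0 to 1. For the difference between the effects (1), no filter gave 6, 2 libraries per group 0, and leaving out 1 library 1 to 3; a fit of the compared groups alone was not run for it. The cause of these changes was not tested. Of called values under all alternatives, 41 of 126 lost the call for siRNA-2, 50 of 168 between the siRNAs, 18 of 84 for the ATRNL1 lentivirus, 2 of 84 for the control lentivirus (MT-TY) and 1 of 44 for the difference. Shares of counts and the ratio of MT-ND6 to the heavy strand moved by less than 1 SD under every alternative run for them. Depth limits the transfer RNA rows other than MT-TP, of which 16 had too few counts for a test.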

Other observations

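Nuclear copies of mitochondrial DNA were counted beside the members. Of their 417 rows, 48 were tested and 5 had a mean above 3 CPM: MTND2P28, MTCO1P12, MTATP6P1, MTND4P12 and MTND1P21. MTATP6P1, a copy of MT-ATP6, had 237, 236 and 228 CPM with scramble and 110, 172 and 165 CPM with the control lentivirus, without overlap (log2 fold change -0.65, edgeR adjusted p = 0.00306). MT-ATP6 itself had 2721, 2824 and 2664 CPM with scramble and 2593, 3311 and 3554 CPM with the control lentivirus. MTND2P28, a copy of MT-ND2, had 134, 141 and 120 CPM with scramble, 91.1, 98.6 and 86.6 CPM with siRNA-2 and 158, 185 and 205 CPM with the control lentivirus. For siRNA-2 against scramble its log2 fold change was -0.51 (edgeR, adjusted p = 0.0049), and that of MT-ND2 was -0.51. How reads were divided between a copy and its source was not tested.

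MT-ATP8 and MT-ATP6 share bases and are read from 1 RNA, yet their count ratio varied between libraries. MT-ATP8 had 0.226, 0.224 and 0.213 counts per count of MT-ATP6 with scramble, 0.270, 0.305 and 0.234 with the control lentivirus and 0.210, 0.213 and 0.124 with the ATRNL1 lentivirus. The last of these libraries stood lowest of all 15.

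Regulators of mitochondrial biogenesis had 7 of 11 genes called higher and 0 lower with the ATRNL1 lentivirus against the control lentivirus, beside 19.1% and 18.0% of all genes, with a median log2 fold change of 0.59 against 0.00 over all genes. ESRRA, an estrogen-related nuclear receptor that drives genes of oxidative metabolism, rose from 3.57 to 8.51 CPM. Its scramble mean was 31.4 CPM, and control lentivirus against scramble gave a log2 fold change of -3.12. In that comparison 7 of the 11 were called lower and 3 higher, beside 33.2% and 30.3% of all genes. With siRNA-1, 2 were called higher and 1 lower, and with siRNA-2, 0 and 1, beside 5.85% and 3.76% of all genes with siRNA-1 and 9.64% and 8.48% with siRNA-2.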
